A study of Mus musculus with 6 samples.

Results

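The Myc and MAX network was followed here in organoids of mouse pancreatic tumours, through 9 genes matched by symbol: Myc, Mycl, Mycn, Max, Mxd1, Mxd3, Mxd4, Mnt and Mga. All 9 were among the 53379 genes of the count table, and all 9 passed the filter on low counts that left 14537 genes for testing. Total RNA came from 6 organoid cultures of 3 tumour lines, numbered 6, 23 and 34, each sequenced in 2 states. In the heterozygous state the labelled genotype included Trp53 LSL-R172H/+ with Pdx1-Cre. In the other state, loss of heterozygosity (LOH), it included Trp53 LSL-R172H/- with Pdx1-Cre, so the wild-type Trp53 allele was gone and the mutant one was kept. All cultures therefore shared the Trp53 R172H allele, the C57/Bl6 background and growth in a Matrigel dome with complete mouse organoid medium. Cre was driven by the promoter of Pdx1, a transcription factor of the pancreatic lineage that is also active in parts of the foregut. The descriptions of the 3 LOH libraries carry the suffix Nut, whose meaning is not stated in the labels. Whatever it stands for cannot be told apart from the genotype.

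Myc is a transcription factor of the basic helix-loop-helix leucine zipper class that binds DNA only as a dimer with Max, mostly at the E-box motif CACGTG, and raises genes of ribosome production, nucleotide synthesis and cell cycle entry. Mycl and Mycn are its paralogs. The Mxd proteins and Mnt also pair with Max, occupy the same motif and bring Sin3 and histone deacetylases, so they oppose Myc at shared genes. Mga is a large protein that pairs with Max inside a Polycomb complex, PRC1.6, which silences germline genes in somatic cells.

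The libraries held from 13680458 to 27917277 expected counts, and 3 counts corresponded to 0.1 to 0.223 CPM, the TMM-scaled count relative to library size. Genes of the protein-coding table took from 67.92% to 73.28% of the counts in heterozygous libraries and from 61.43% to 67.2% in LOH libraries. Trp53 mRNA, which includes the mutant allele in both states, was at 77.3, 76.3 and 86.5 CPM in heterozygous organoids (in the order of lines 6, 23 and 34, as in every set of 3 values) and at 73.5, 52.5 and 47.4 CPM in LOH organoids. It was lower in LOH in every line, with a log2 fold change of -0.47 (SE 0.22) that did not pass (adjusted p = 0.227, edgeR quasi-likelihood test with Benjamini-Hochberg adjustment), and total Trp53 mRNA does not separate the alleles. Without the LOH library of line 6 that difference passed (edgeR adjusted p = 0.0368), in a setting that called 2449 of 15132 genes tested. Of 10 epithelial markers, all 10 were tested and none was called, with fitted log2 fold changes from 0.00 to 1.33. Epcam was at 272 to 333 CPM in heterozygous and at 365 to 681 CPM in LOH libraries. Of the other cell types, 0 of 10 fibroblast, 1 of 10 leukocyte, 1 of 8 endothelial, 2 of 12 acinar and 1 of 8 islet markers passed the filter.

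Only 1 member of the network was called by the main test, which had no block for the organoid line. Mxd1 was higher in LOH in all 3 organoid lines, with a fitted 5.23-fold difference, while the mRNA of Myc itself, of its paralogs, of Max and of the remaining Max partners did not pass the test. The call for Mxd1 stood at 1 of 9 members, beside 5.21% of all genes tested that were called in either direction and 3.55% called higher in LOH. With the organoid line as a block 0 of 9 were called (1 at an unadjusted p under 0.05, edgeR), beside 1.47% of all genes called in either direction and 1.22% called higher. In that fit 20% of all genes tested had an unadjusted p under 0.05. Groups that did not overlap in CPM were found for 1 of 9 members, beside 32.8% of all genes tested. A single direction in all 3 lines was found for 2 of 9 members, Mxd1 and Mxd3, beside 44.5% of all genes tested. The other 7 members were higher in LOH in at least 1 line and lower in at least 1 line.

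**Figure D1:**
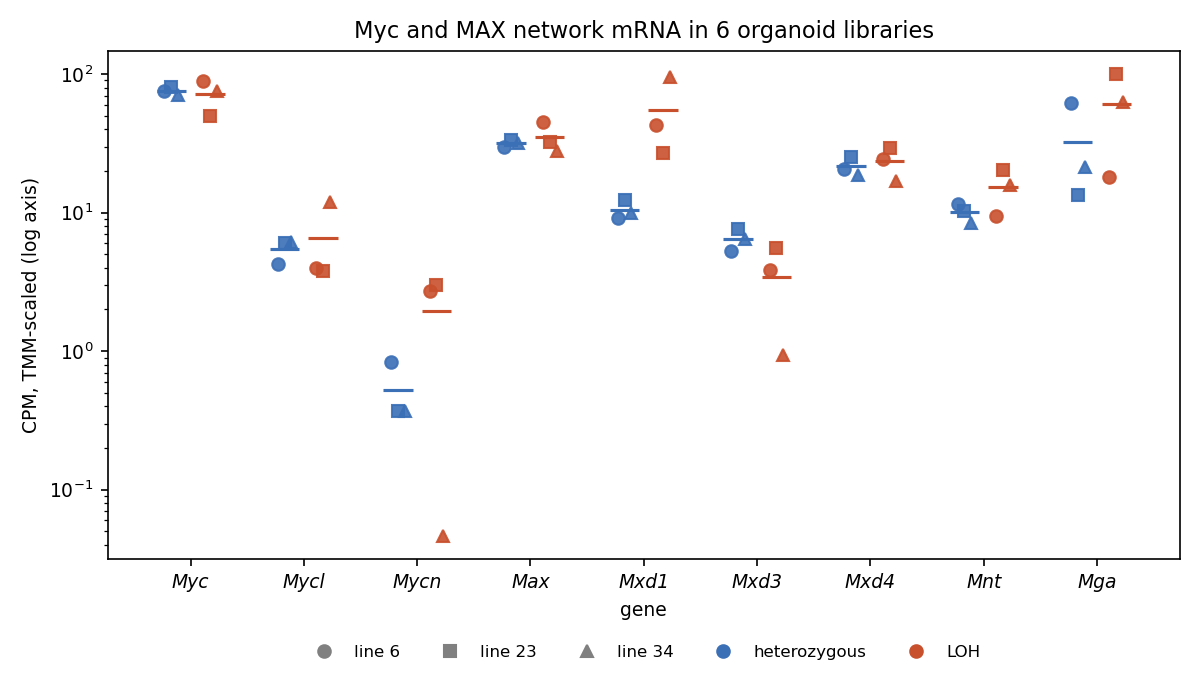
CPM on a log axis for the 9 members in each of the 6 libraries, with blue for heterozygous, red for LOH, the symbol for the organoid line and a bar for the group mean. For Mxd1 the LOH points (27.0 to 94.9 CPM) all lie above the heterozygous points (9.14 to 12.4 CPM), and for the other 8 members the groups overlap.

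Myc (chromosome 15, 61985391 to 61990374, plus strand, GRCm38) was at 75.4, 80.1 and 70.3 CPM in heterozygous organoids of lines 6, 23 and 34. In LOH organoids of the same lines it was at 89.5, 49.5 and 75.4 CPM. The LOH library of line 23 was the lowest of the 6 and that of line 6 the highest, so the groups overlapped. The fitted log2 fold change was -0.07 (SE 0.24), with an adjusted p of 0.873 by the edgeR quasi-likelihood test and an exact two-sided permutation p of 0.9. The log2 ratio of LOH to heterozygous within a line was 0.25, -0.70 and 0.10 in lines 6, 23 and 34. The sign of the fitted value rested on 1 library, since without the LOH library of line 23 it was 0.13. The 20 tested genes around Myc, from 58889229 to 67176830, had median log2 ratios of 0.68, 0.22 and 0.31 in lines 6, 23 and 34, beside 0.32, 0.19 and 0.11 for the whole of chromosome 15. Myc lay below these neighbours' medians in every line, and from 4 to 5 of the 20 neighbours lay below Myc. Pvt1, the long noncoding RNA gene next to Myc, was at 6.44, 6.90 and 5.67 CPM in heterozygous and at 4.48, 3.70 and 3.63 CPM in LOH libraries. Its LOH values all lay below its heterozygous values, as they did for 16.5% of all genes tested. The Pvt1 log2 fold change of -0.69 (SE 0.26) did not pass (edgeR adjusted p = 0.161).

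The 4 tested genes whose profile over the 6 libraries was most like that of Myc, by the root mean square difference of centred log2 CPM among 10074 other genes that averaged 5 CPM or more, were Usp4 (0.043), Sec23b (0.058), Abhd11 (0.063) and Oxsr1 (0.068). Usp4, on chromosome 9, was at 88.4, 97.3 and 90.0 CPM in heterozygous and at 111, 58.3 and 91.6 CPM in LOH libraries of lines 6, 23 and 34. As for Myc, its highest value was in the LOH library of line 6 and its lowest in that of line 23.

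Mycl (chromosome 4, 122995652 to 123002485, plus strand), a Myc paralog with weaker transforming activity, was at 4.27, 6.08 and 6.14 CPM in heterozygous and at 3.96, 3.78 and 11.9 CPM in LOH libraries. The LOH library of line 34 stood above the heterozygous range and those of lines 6 and 23 below it. It had a fitted log2 change of 0.25 (SE 0.50, edgeR adjusted p = 0.777), and the lines gave -0.11, -0.68 and 0.95. Mycl has 2 main coding transcripts that share the same 1107 coding bases and differ outside them. The share of the first, Mycl-201, in the TPM of the gene (the authors' abundance scaled for transcript length) was 31.6%, 24.7% and 28.6% in heterozygous libraries and 22.2%, 55.0% and 68.7% in LOH libraries. The LOH libraries of lines 23 and 34 were above the heterozygous range and that of line 6 was below it (exact two-sided permutation p = 0.4). These shares rest on few reads, from 16.1 to 208 expected counts for Mycl-201.

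Mycn (chromosome 12, 12936093 to 12941914, minus strand), the paralog known from neural and embryonic tissue, was near the limit of detection. It held 25, 5 and 11 counts in heterozygous organoids, which is 0.834, 0.371 and 0.367 CPM. In LOH organoids it held 47, 80 and 1 counts, which is 2.74, 3.02 and 0.0466 CPM. The lines went opposite ways: the CPM ratio of LOH to heterozygous was 3.28 (exact 95% interval 1.98 to 5.56, counting error only) in line 6 and 8.14 (3.35 to 25.8) in line 23. In line 34 it was 0.127 (0.00295 to 0.873), with the 1 LOH count below the 3 taken as the floor. The fitted log2 fold change of 1.85 (SE 1.10) did not pass (edgeR adjusted p = 0.333). Together, Myc supplied 94.9%, 95.5% and 94.4% of the TPM of the 3 Myc paralogs in heterozygous libraries and 94.8%, 91.0% and 90.8% in LOH libraries.

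**Figure D2:**
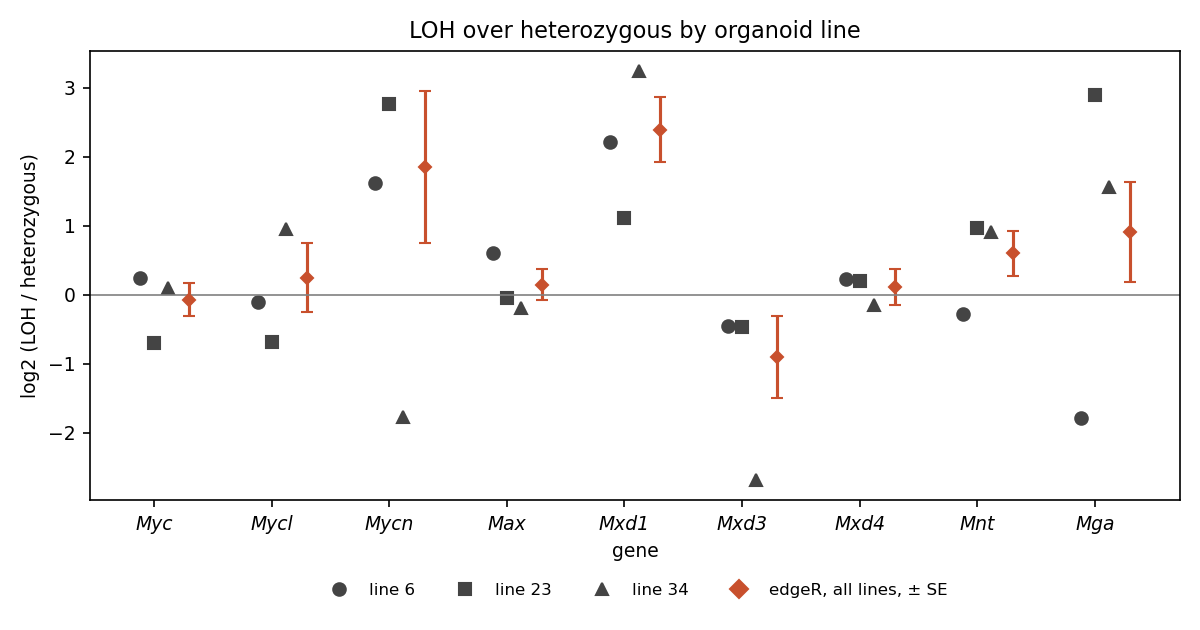
The log2 ratio of LOH to heterozygous for each member in each organoid line (black symbols) and the edgeR log2 fold change over all lines with its standard error (red diamonds and bars). Mxd1 lies above 0 and Mxd3 below 0 in all 3 lines, and the widest spreads over lines are those of Mga (-1.78 to 2.90) and Mycn (-1.77 to 2.76).

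Max (chromosome 12, 76937269 to 76962201, minus strand), the partner that Myc, Mxd, Mnt and Mga proteins need to bind DNA, was at 29.8, 33.4 and 31.9 CPM in heterozygous and at 45.2, 32.4 and 27.8 CPM in LOH libraries. The LOH values lay above, within and below the heterozygous range. Its fitted log2 change, 0.15 with an SE of 0.22, did not pass (edgeR adjusted p = 0.705), and the lines gave 0.60, -0.04 and -0.19. Its 20 tested neighbours had medians of 0.31, 0.89 and 0.61 in those lines, so Max lay below its neighbourhood in lines 23 and 34 and above it in line 6. AC124556.1, which overlaps Max on the same strand, held from 4 to 31 counts per library.

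Max mRNA has 2 main coding forms, long known as alternative Max proteins that differ by a short insert ahead of the DNA-binding region. The insert is shown because it is the only difference between the coding sequences of the 2 Max transcripts with the highest mean shares here. In the GENCODE annotation the coding sequence has 456 bases in Max-201 and 483 bases in Max-202, and the 27 bases found in Max-202 alone lie at chr12:76961263-76961289 (GRCm38, minus strand) and encode 9 codons. They are in capitals within 12 bases of coding sequence on each side.
Max-202 insert: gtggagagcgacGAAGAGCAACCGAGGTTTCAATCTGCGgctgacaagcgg
The longer form made up 12.7%, 9.01% and 9.61% of Max TPM in heterozygous and 27.4%, 11.2% and 12.4% in LOH libraries. The LOH library of line 6 stood highest, and the groups overlapped, since the heterozygous value of line 6 exceeded the LOH values of lines 23 and 34 (exact two-sided permutation p = 0.3, LOH minus heterozygous 6.55 percentage points). Without the LOH library of line 6 the difference was 1.37 percentage points. Max-201 took from 66.6% to 81.2% in heterozygous and from 60.5% to 78.0% in LOH libraries. Line 6 had the lowest share of Max-201 in both groups. A further coding transcript, Max-205, took 12.7%, 5.45% and 0% in heterozygous and 8.84%, 5.02% and 0.446% in LOH libraries. In the heterozygous library of line 6 its share equalled that of Max-202.

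Mxd1 (chromosome 6, 86647042 to 86669161, minus strand), the Max partner known for its rise when cells leave the cycle and differentiate, was at 9.14, 12.4 and 9.98 CPM in heterozygous organoids. LOH organoids held 42.6, 27.0 and 94.9 CPM, so every LOH library exceeded every heterozygous one. The group means were 10.5 ± 1.69 CPM (SD, n = 3) and 54.8 ± 35.6 CPM (SD, n = 3). Line 34 had the widest gap, 9.44-fold, line 6 a 4.62-fold gap and line 23 a 2.17-fold gap. The fitted log2 fold change was 2.39 (SE 0.47), with an adjusted p of 0.0378 by the edgeR quasi-likelihood test and an exact two-sided permutation p of 0.1, the smallest that 3 against 3 libraries allow. With the organoid line as a block the estimate was 2.20 (SE 0.46) and the call was lost (edgeR adjusted p = 0.0925). It was also lost without any 1 heterozygous library (edgeR adjusted p from 0.148 to 0.185) and without any 1 line (0.0776 to 0.152). Without any 1 heterozygous library, or without line 23 or line 34, the test called 0 of all genes tested, so no gene kept a call there. Without line 6 it called 1422 of 14727 genes. Over all alternatives the log2 fold change ran from 1.56 to 2.84 and the adjusted p from 2.25e-05 to 0.185. The 20 tested neighbours of Mxd1, from 86334031 to 87350942, had median log2 ratios of 0.03, -0.03 and 0.30 in lines 6, 23 and 34. Of these 20 neighbours, 19, 18 and 19 lay below Mxd1 in the 3 lines. Gm44292, which overlaps Mxd1 on the same strand, held only 7 to 36 counts per library.

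The 250 bases before the Mxd1 start are shown because Mxd1 was the member called by the main test. They come from the RefSeq promoter of build GRCm38.p6 at chr6:86669160-86669409 on the minus strand, with CCAAT boxes (CCAAT) and GC boxes (GGGCGG, which overlap once at the end) in capitals.
Mxd1 upstream: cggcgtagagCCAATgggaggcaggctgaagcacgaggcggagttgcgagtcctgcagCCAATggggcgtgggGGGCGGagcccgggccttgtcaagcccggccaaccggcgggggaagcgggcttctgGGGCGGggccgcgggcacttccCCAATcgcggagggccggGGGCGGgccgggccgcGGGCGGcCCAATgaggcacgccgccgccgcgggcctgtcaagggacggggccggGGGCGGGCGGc
This stretch was 78.4% G or C and held 4 CCAAT boxes, 6 GC boxes and 0 E-boxes, counted on both strands. In windows of 250 bases before and 50 after the start, CCAAT occurred in 41.1%, GGGCGG in 38.2% and CACGTG in 8.09% of all 27025 genes with a promoter. Among the 10100 tested genes with a promoter the shares were 43.3%, 68.8% and 11.9%. A match of letters is a description of the window only.

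Mxd3 (chromosome 13, 55325168 to 55329823, minus strand), unusual among the Mxd genes in being expressed in dividing cells, was at 5.27, 7.64 and 6.44 CPM in heterozygous and at 3.84, 5.55 and 0.931 CPM in LOH libraries. It was lower in LOH in every line, but the LOH value of line 23 exceeded the heterozygous value of line 6, so the groups overlapped in CPM. In TPM, with 5.66, 6.69 and 5.91 against 3.04, 4.05 and 0.61, they did not overlap. On the TPM scale, however, the median gene was itself lower in LOH, by a log2 difference of -0.35. The log2 fold change of -0.90 (SE 0.59) did not pass (edgeR adjusted p = 0.375). By line it was -0.45, -0.46 and -2.68, and without the LOH library of line 34 the fitted value was -0.45. Tested neighbours of Mxd3 also had medians below 0, at -0.77, -0.33 and -0.68 in lines 6, 23 and 34, beside -0.56, -0.07 and -0.66 for the whole of chromosome 13. Mxd3 lay below its neighbours' median in lines 23 and 34 and above it in line 6. Its end overlaps Prelid1 on the opposite strand, a gene with 137 to 245 CPM. The strand setting of the counting is not given in the sources used here, so reads of the overlap may be assigned to either gene.

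Mxd4 (chromosome 5, 34173883 to 34187720, minus strand) had the highest mean TPM of the Mxd genes among the 9 members in heterozygous libraries. It was at 20.8, 25.4 and 18.6 CPM in heterozygous and at 24.4, 29.3 and 16.8 CPM in LOH libraries. The LOH range enclosed the heterozygous one. Its fitted log2 change of 0.12 with an SE of 0.26 did not pass (edgeR adjusted p = 0.794), and the lines gave 0.23, 0.20 and -0.15.

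The make-up of the Mxd1, Mxd3 and Mxd4 mRNA pool differed between the groups, as measured by TPM, which scales for transcript length and is compared here within a library. Mxd1 made up 19.8%, 17.8% and 19.5% of the summed TPM of the 3 genes in heterozygous organoids. In LOH organoids its share was 53.8%, 33.6% and 81.0%. The Mxd3 share was 35.6%, 40.3% and 42.3% in heterozygous and 15.3%, 24.2% and 2.58% in LOH organoids. For the Mxd1 and Mxd3 shares the groups did not overlap. The Mxd4 share was 44.6%, 42.0% and 38.3% in heterozygous and 30.9%, 42.2% and 16.4% in LOH organoids, with overlapping groups. Since these are parts of the same sum, a larger Mxd1 share leaves less for the other genes. The lower Mxd3 share is therefore not independent of Mxd1, and Mxd3 itself did not pass (edgeR adjusted p = 0.375). Myc TPM per Mxd1 TPM was 16.1, 15.4 and 15 in heterozygous libraries and 3.97, 3.85 and 1.74 in LOH libraries. The summed TPM of Mxd1, Mxd3, Mxd4 and Mnt came to 36.2%, 39.97% and 37.2% of the summed TPM of the Myc paralogs in heterozygous libraries, and to 49.2%, 86.9% and 72.3% in LOH libraries. These sums share the Mxd1 values described above and were not tested. They leave out Mxi1, a further Mxd family gene given below, so they do not cover the whole family.

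**Figure D3:**
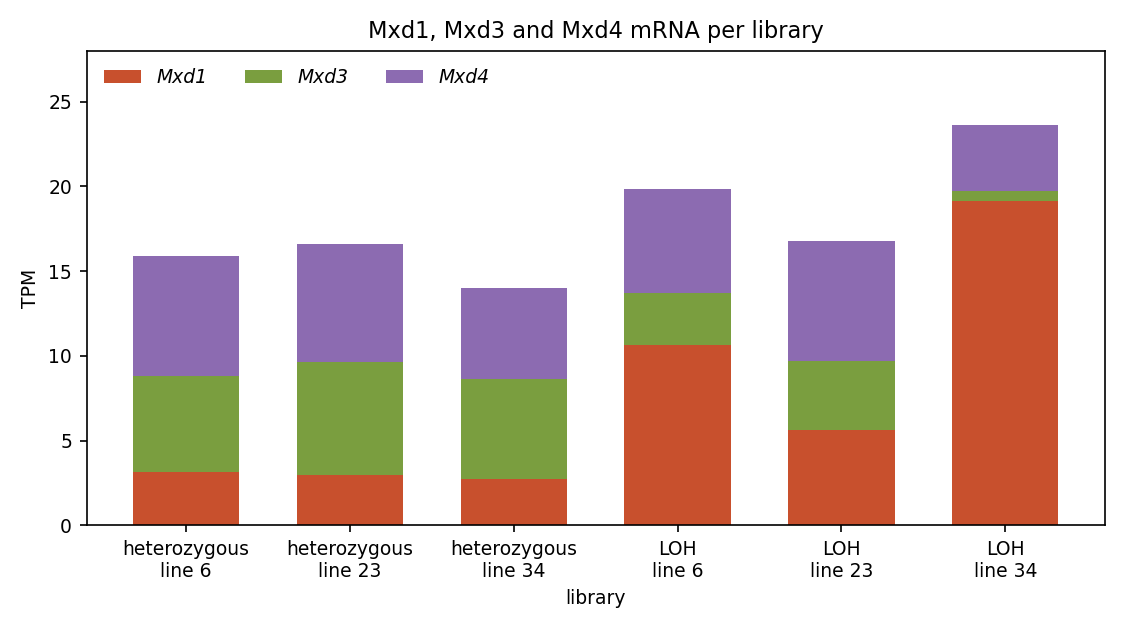
Stacked bars of Mxd1, Mxd3 and Mxd4 TPM in each of the 6 libraries. The Mxd1 part is 2.72 to 3.14 TPM in the heterozygous libraries and 5.63 to 19.11 TPM in the LOH libraries, while the Mxd3 part is largest in the heterozygous libraries (5.66 to 6.69 TPM).

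Mnt (chromosome 11, 74830920 to 74845725, plus strand), a broadly expressed repressor that pairs with Max in resting and dividing cells alike, was at 11.5, 10.3 and 8.38 CPM in heterozygous and at 9.49, 20.3 and 15.8 CPM in LOH libraries. The LOH libraries of lines 23 and 34 exceeded all heterozygous libraries, and that of line 6 lay within their range. Its log2 fold change of 0.60 (SE 0.32) did not pass (edgeR adjusted p = 0.286). The line ratios were -0.27, 0.97 and 0.91 on the log2 scale, against neighbour medians of 0.10, 0.03 and -0.29.

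Mga (chromosome 2, 119897228 to 119969581, plus strand) had the widest range of CPM among the members. It was at 62.0, 13.4 and 21.4 CPM in heterozygous and at 18.0, 100.5 and 63.3 CPM in LOH organoids. The heterozygous library of line 6 was nearly as high as the LOH library of line 34, and the LOH library of line 6 lay between those of the other 2 heterozygous lines. The fitted log2 fold change of 0.91 (SE 0.73) did not pass (edgeR adjusted p = 0.469). By line the log2 ratio was -1.78, 2.90 and 1.56, with 0 of 20 neighbours below Mga in line 6 and 20 of 20 below it in lines 23 and 34. Without line 6, the line with the opposite sign, the log2 fold change was 2.20 and passed (edgeR adjusted p = 0.0419). That setting called 1422 of 14727 genes tested, beside 5.21% in the main test. Without line 23 the log2 fold change of Mga was -0.04.

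Mga is a long gene, and its most abundant coding transcript, Mga-201, has 11982 bases. The effective length in the authors' files, as a mean over the 6 libraries, was 5926 bases for Mga. The 997 tested genes of its class, from 5000 to under 8000 bases, had median centred log2 CPM of 0.22, -0.25 and -0.22 in the heterozygous and of -0.14, 0.35 and 0.11 in the LOH libraries of lines 6, 23 and 34. The medians of the 173 tested genes of 8000 bases or more were 0.31, -0.66 and -0.48 in heterozygous and -0.21, 0.71 and 0.26 in LOH libraries. Mga, on the same scale, was at 0.80, -1.41 and -0.73 in heterozygous and at -0.98, 1.49 and 0.83 in LOH libraries. Mga and both classes of long genes were above their mean in the same 3 libraries and below it in the same 3, and the medians of genes under 2000 bases stayed within 0.12 of the mean. The part of transcript length in the Mga values was not tested. Of 53 annotated transcripts of the members, 16 made up at least 10% of the TPM of their gene in either group and belonged to a member that averaged 1 TPM or more. Groups that did not overlap were found for 1 of these 16, beside 13.4% of 22395 transcripts chosen in the same way from all tested genes with several transcripts. This was Mga-206, a transcript annotated without a coding sequence, at 12.2%, 20.8% and 17.2% of Mga TPM in heterozygous and at 7.31%, 3.25% and 11.0% in LOH libraries (exact two-sided permutation p = 0.1, the smallest possible). Its share differed by -9.59 percentage points in TPM and by -5.28 percentage points in expected counts.

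**Figure D4:**
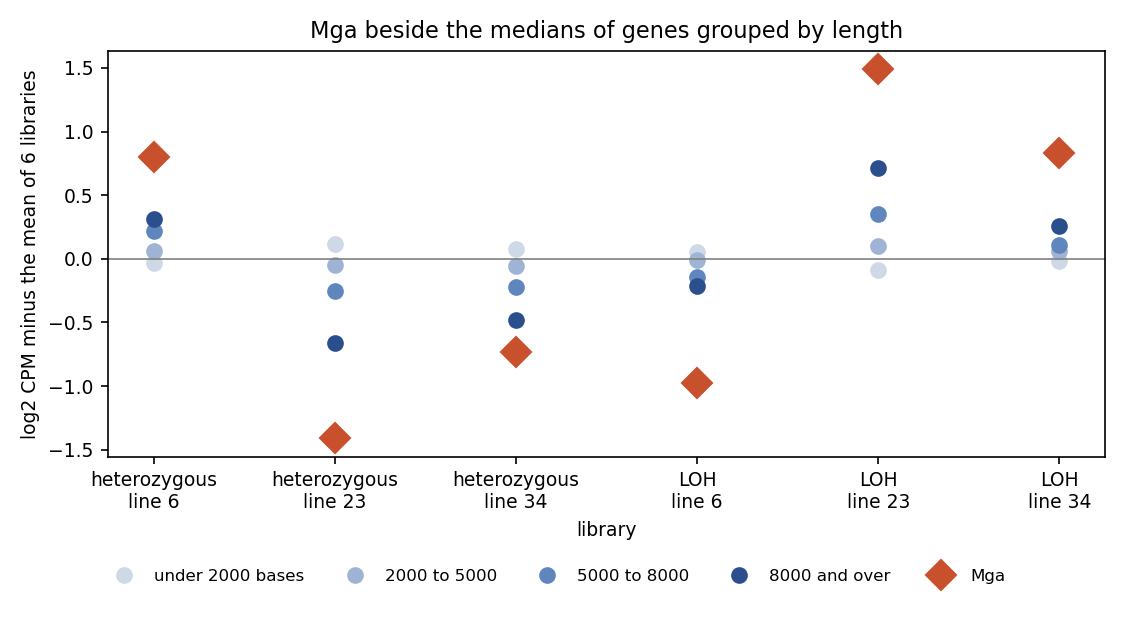
Log2 CPM minus the mean of the 6 libraries, for Mga (red diamonds) and as medians of tested genes in 4 classes of effective length (blue circles, darker for longer). In each library Mga lies on the same side of 0 as the genes of 5000 to 8000 bases and those of 8000 bases and over, and farther from 0 than either median.

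Compared per length, Myc was the most abundant member in both groups. In heterozygous libraries the order by mean TPM was Myc (45.5 ± 4.87, SD, n = 3), Max (22.3), Mxd4 (6.47), Mga (6.31), Mxd3 (6.09), Mxd1 (2.94), Mnt (2.60), Mycl (2.12) and Mycn (0.297). Neighbours in this order whose ranges did not overlap were Myc and Max, Max and Mxd4, Mxd3 and Mxd1, and Mycl and Mycn. In LOH libraries the order was Myc (32.4 ± 10.4, SD, n = 3), Max (19.4), Mxd1 (11.8), Mga (8.08), Mxd4 (5.69), Mnt (2.96), Mxd3 (2.57), Mycl (1.83) and Mycn (0.763). Mxd1 came after Mxd3 in the heterozygous order and ahead of it in the LOH order, but all neighbours in the LOH order had overlapping ranges. TPM sets the total of all annotated RNA to the same sum, and on that scale the median gene was lower in LOH by a log2 difference of -0.35, against 0.06 with TMM-scaled counts. By limma on log2(TPM + 1) the fitted values of Mycl (-0.23), Max (-0.23) and Mxd4 (-0.18) turned below 0, none of them past the threshold, while Mxd1 stayed higher at 1.56. Myc was at -0.52 by the same fit and did not pass (limma adjusted p = 0.188). Fewer transcripts per cell and fewer cells that express a gene cannot be told apart in these bulk libraries.

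Beyond the 9 members, the list of other Max and Mlx network genes had 4 members, all tested. Of these 1 of 4 was called, beside 5.21% of all genes tested. Mxi1, the Mxd family member also called Mxd2, rose from 16.2, 24.5 and 19.0 CPM in heterozygous to 32.9, 54.2 and 54.0 CPM in LOH libraries. Its LOH values all exceeded its heterozygous values, with a fitted change of 1.24 (log2, SE 0.27, edgeR adjusted p = 0.0484, and 0.0852 with the line as a block). The Mxi1 call was lost in 12 of 19 alternatives. Among these were upper quartile scaling (edgeR adjusted p = 0.0507) and limma on log2(TPM + 1) (limma adjusted p = 0.068). The 12 also included the fits without any 1 heterozygous library and without line 23 or line 34, which called 0 of all genes tested. Mlx, the Max-like partner, was at 0.34 (adjusted p = 0.591) and Mlxip, its sensor partner, at -0.08 (adjusted p = 0.857) by the same test. Mlxipl, which encodes the glucose-responsive factor ChREBP, was at -0.95 (edgeR adjusted p = 0.192). The 2 repressor genes of the network that were called, Mxd1 and Mxi1, were both higher in LOH, as were 68.2% of all calls in the main test.

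The proteins through which the network acts on chromatin showed no called gene by the edgeR test, where 5.21% of all genes tested were called. Other tools called some of them, and called more of all genes tested: 15.7% by DESeq2, with 6.15% lower in LOH, and 16% by limma on log2(TPM + 1), with 13.7% lower. An unadjusted edgeR p under 0.05 was found for 25.3% of all genes tested. Of 16 Myc cofactors 0 were called by edgeR (4 at an unadjusted p under 0.05) and their median log2 fold change was -0.12. Wdr5, which helps Myc to bind chromatin, was at -0.87 (SE 0.28, edgeR adjusted p = 0.114), and Smarcb1, a subunit of the SWI/SNF remodeller, was at -0.49 (SE 0.16, adjusted p = 0.118). DESeq2 called 2 of the 16 and limma 4, all lower in LOH. Of 11 corepressors of the Mxd and Mnt proteins 0 were called by edgeR (2 at an unadjusted p under 0.05), with a median of -0.23. Rbbp4, a histone chaperone of the Sin3 complex, was at -0.84 (SE 0.20, edgeR adjusted p = 0.0565) and Sap30, a Sin3 subunit, was at -0.88 (SE 0.23, adjusted p = 0.0761). Both had LOH values below all heterozygous values, as had 16.5% of all genes tested. DESeq2 called 2 of the 11, limma 3 and edgeR with upper quartile scaling 1, all lower in LOH. Of the 13 genes of the PRC1.6 complex around Mga 0 were called by edgeR (0 at an unadjusted p under 0.05), by DESeq2 or by limma, with a median of -0.14. Yaf2, a subunit of the complex, was at 0.61 (edgeR adjusted p = 0.208) and Tfdp1, the dimer partner of E2F6, at -0.62 (adjusted p = 0.276). The germline genes that PRC1.6 binds were nearly silent in both groups: 3 of 17 passed the filter, 6 had no count in any library, and their summed level was 2.72 to 4.75 TPM in heterozygous and 1.20 to 4.43 TPM in LOH libraries.

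Among 18 tested genes of Myc protein stability, of 19 listed, 1 rose and 1 fell, which is 11.1% beside 5.21% of all genes tested. Fbxo32, an F-box protein of a ubiquitin ligase known from muscle atrophy, was at 2.47, 3.19 and 1.47 CPM in heterozygous and at 9.90, 8.27 and 14.0 CPM in LOH libraries (log2 change 2.19 with SE 0.38, edgeR adjusted p = 0.0302, and 0.0944 with the block). Trim32, a ubiquitin ligase that can mark Myc for degradation, was at 18.1, 20.5 and 19.3 CPM and at 10.01, 10.3 and 9.64 CPM (log2 change -0.95 with SE 0.19, edgeR adjusted p = 0.0385, and 0.131 with the block). In both genes the groups were well apart. Among 19 tested genes that control Myc transcription and mRNA, of 21 listed, 1 rose, which is 5.26% and near that background. Igf2bp3, an RNA-binding protein that stabilises Myc mRNA, was at 1.13, 0.742 and 3.0 CPM in heterozygous and at 5.65, 47.0 and 28.6 CPM in LOH libraries. The fitted log2 change was 4.02 (SE 0.87, edgeR adjusted p = 0.0473, and 0.0886 with the block), and in TPM its groups overlapped.

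Known targets of Myc in ribosome biogenesis lay lower in LOH, although Myc mRNA did not pass the test. All 49 listed genes were tested, 7 fell and none rose, which is 14.3% beside 1.66% of all genes tested that were called lower. The fitted log2 fold change was below 0 for 49 of 49, with a median of -0.80 beside 0.06 for all genes tested. The lines differed in size, with list medians of -0.15, -1.30 and -1.21 in lines 6, 23 and 34 beside -0.01, 0.03 and 0.06 for all genes tested. Pa2g4, a growth-regulated protein of ribosomal particles, was at 295, 388 and 381 CPM in heterozygous and at 174, 104 and 151 CPM in LOH libraries. Its LOH libraries all lay below its heterozygous ones (log2 change -1.31 with SE 0.24, edgeR adjusted p = 0.0335, and 0.101 with the block). Mrto4, an assembly factor of the large ribosomal subunit, was at 58.5, 70.3 and 69.7 CPM and at 31.9, 16 and 22.7 CPM (log2 change -1.49 with SE 0.28, edgeR adjusted p = 0.0335, and 0.0925 with the block). The other 5 that fell were Ltv1 (-1.0), of small subunit export, the helicase Ddx21 (-1.23), the nucleolar proteins Nop16 (-1.30) and Rrp1b (-1.19), and Nop58 (-0.80), a core protein of small nucleolar particles. With the line as a block 0 of 49 were called. Without the LOH library of line 6 the test called 38 of 49, beside 2449 of all genes tested. Without the LOH library of line 23 it called 0 (451 of all genes) and without that of line 34 it called 1 (796 of all genes). Without any 1 heterozygous library, or without line 23 or line 34, it called 0 of the list and 0 of all genes tested. The median stayed between -1.27 and -0.63 over all alternatives.

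Targets in metabolism and the cell cycle leaned the same way. Of 44 metabolic genes 2 fell and none rose, 35 had a fitted value below 0 and the median was -0.60. Mthfd1l, a mitochondrial enzyme of one-carbon metabolism, was at 75.7, 80.7 and 77.9 CPM in heterozygous and at 38.5, 39.1 and 40.3 CPM in LOH libraries. The replicates of each group were close together (log2 change -0.99 with SE 0.16, edgeR adjusted p = 0.0251, and 0.103 with the block). Slc19a1, the folate carrier of the cell membrane, was at 27.6, 28.6 and 29.7 CPM and at 14.7, 9.89 and 8.34 CPM (log2 change -1.39 with SE 0.25, edgeR adjusted p = 0.0324, and 0.0878 with the block). Of 19 cell cycle targets 1 fell and none rose, 18 were below 0 and the median was -0.69. Cdk4, the kinase that pairs with D-type cyclins, was at 201, 238 and 232 CPM in heterozygous and at 119, 120.2 and 100.1 CPM in LOH libraries (log2 change -0.98 with SE 0.17, edgeR adjusted p = 0.0306, and 0.105 with the block). In metabolism 4.55% and in the cell cycle 5.26% of the genes were called, all of them lower in LOH, beside 1.66% of all genes tested called lower and 5.21% called in either direction. Over all pathway lists 17 of 231 tested genes were called, beside 5.21% of all genes tested. With the block 0 were called and 81 had an unadjusted p under 0.05 (edgeR), beside 1.47% and 20% of all genes tested. Without any 1 heterozygous library 0 were called (56 to 71 at an unadjusted p under 0.05), as were 0 of all genes tested. Without the LOH library of line 6 the same test called 105 genes of these lists, beside 2449 of all 15132 genes tested.

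**Figure D5:**
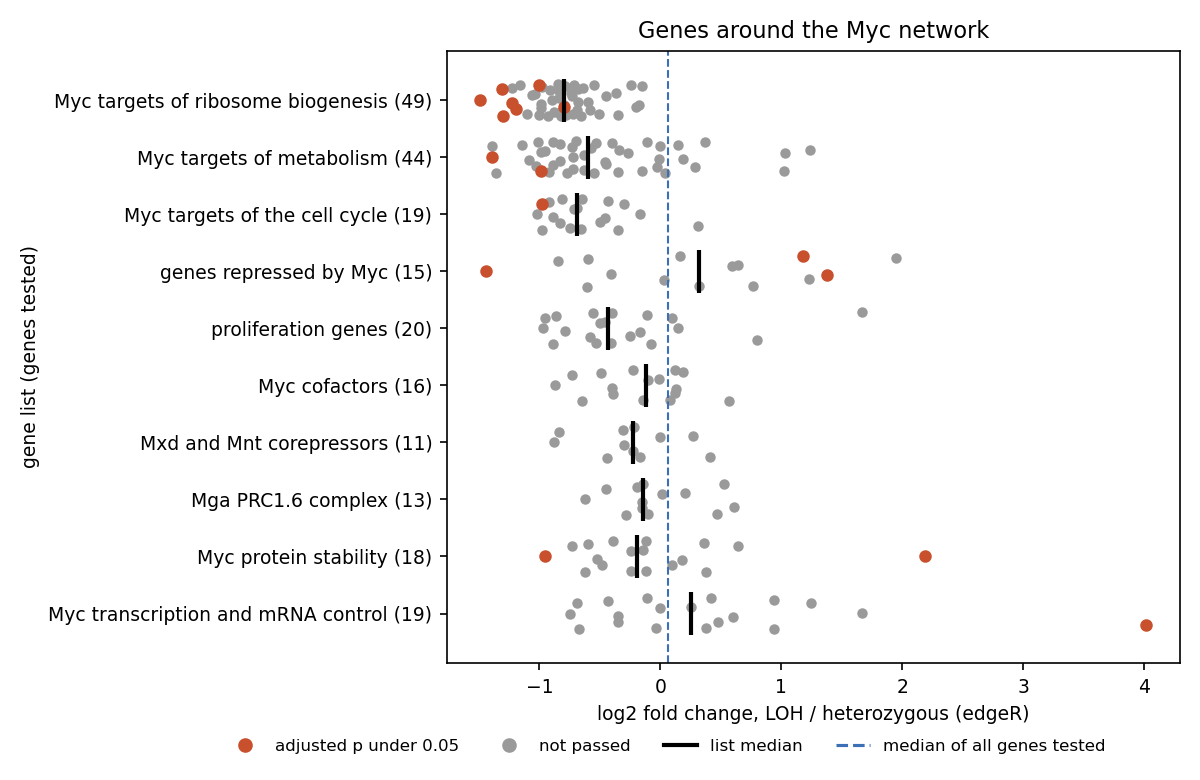
Log2 fold change of LOH over heterozygous for every tested gene of 10 lists around the network, with red points for an adjusted p under 0.05, a black bar for the list median and a dashed line for the median of all genes tested (0.06). All 49 ribosome biogenesis targets lie left of 0, with a median of -0.80.

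Genes that Myc is known to repress went both ways. Of 17 listed, 15 were tested, 2 rose and 1 fell, which is 20% beside 5.21% of all genes tested. The median was 0.32, or -0.21 by limma on log2(TPM + 1). It was 0.09 without the LOH library of line 34 and 0.61 without that of line 6. Klf4, a factor of epithelial differentiation, was at 31.7, 32.7 and 31.2 CPM in heterozygous and at 81.7, 66.3 and 68.3 CPM in LOH libraries (log2 change 1.18 with SE 0.17, edgeR adjusted p = 0.0208, and 0.0852 with the block). Ndrg2, a gene of the Myc-downregulated NDRG family, was at 9.94, 17.8 and 11.0 CPM and at 32.5, 37.2 and 30.8 CPM (log2 change 1.38 with SE 0.27, edgeR adjusted p = 0.0367, and 0.0721 with the block). Cebpa, a factor of differentiation and growth arrest, was at 11.8, 12 and 8.71 CPM and at 4.25, 4.45 and 3.31 CPM (log2 change -1.44 with SE 0.27, edgeR adjusted p = 0.0333, and 0.0852 with the block). In all 3 genes the groups were apart and every line went the same way.

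E-boxes in promoters were counted as letters, with CACGTG reading the same on both strands. A promoter was found for 8 of 9 members, and 3 of these 8 held the motif. The windows are shown, with 10 bases on each side, because Max, Mxd4 and Mnt are the members with the motif that Max dimers bind, and because Cdk4 and Ltv1 were the 2 of 10 called targets with the motif. All are from RefSeq promoters of build GRCm38.p6, with the motif in capitals. They lie at chr12:76962236-76962261 (minus strand) for Max, chr5:34187914-34187939 (minus) for Mxd4, chr11:74830791-74830816 (plus) for Mnt, chr10:127063353-127063378 and chr10:127063514-127063539 (plus) for the first and last of 4 in Cdk4, and chr10:13193094-13193119 (minus) for Ltv1.
Max: tgagcccggtCACGTGttagggggcc
Mxd4: gctgggccacCACGTGctgttgctaa
Mnt: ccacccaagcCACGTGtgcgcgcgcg
Cdk4 first: ggcagccagtCACGTGccacacagcg
Cdk4 last: gggtgaagatCACGTGtccagaacgt
Ltv1: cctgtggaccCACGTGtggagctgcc
The motif began 3 bases before the start in Max and 29 bases after it in Ltv1. It occurred in 14 of 43 ribosome biogenesis targets with a promoter (32.6%), 8 of 39 metabolic targets (20.5%), 2 of 17 cell cycle targets (11.8%) and 4 of 14 repressed genes (28.6%), beside 11.9% of tested genes. The 3 members with the motif, Max, Mxd4 and Mnt, had edgeR log2 fold changes of 0.15, 0.12 and 0.60, none of which passed.

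Proliferation genes and markers of other cells are given beside these results. Of 20 proliferation genes 0 were called by edgeR (6 at an unadjusted p under 0.05), 5 by DESeq2 and 8 by limma on log2(TPM + 1), all of those lower in LOH. The edgeR share of all genes tested at an unadjusted p under 0.05 was 25.3%. Of all genes tested DESeq2 called 15.7% (6.15% lower in LOH) and limma on log2(TPM + 1) called 16% (13.7% lower), against 5.21% (1.66% lower) by edgeR. By edgeR 16 of the 20 proliferation genes were below 0 and the median was -0.43. Rrm2, of deoxynucleotide synthesis, was at -0.86 (edgeR adjusted p = 0.0633) and Mcm6, of the replicative helicase, at -0.79 (adjusted p = 0.0695). Fibroblast markers summed to 0.05 to 0.08 TPM in heterozygous and 0.19 to 0.43 TPM in LOH libraries, with Col3a1 and Thy1 listed at 0 throughout. Leukocyte markers summed to 1.76 to 2.25 and 2.67 to 10.8 TPM, mostly Cd68 (log2 fold change 2.21, edgeR adjusted p = 0.0713), with Adgre1, Lyz2 and Nkg7 among those at 0. Endothelial markers summed to 0.37 to 1.06 and 3.58 to 10.8 TPM, mostly the VEGF receptor gene Flt1 (log2 fold change 4.19, edgeR adjusted p = 0.0316, and 0.0356 with the block), with Emcn at 0. Acinar markers summed to 0.85 to 1.18 and 1.36 to 3.02 TPM, and islet markers, mostly Pdx1, to 13.0 to 16.5 and 5.98 to 17.8 TPM. The part of proliferation, of other cell types or of library make-up in the Mxd1 and target values was not tested.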

How the data were processed

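RNA was extracted with TRIzol and sequenced after a stranded total RNA library kit, per the labels' protocols. The deposited expected counts are the authors' estimates per gene and transcript, and the deposited TPM values are the authors' length-scaled abundances. The deposited normalized table, a signal of counts divided by size factors by the authors, served only to match symbols and to define the protein-coding set. The submitters' processing notes name FastQC 0.11.5, STAR 2.5.2b, RSEM 1.3.0, DESeq2 1.44.0 and GRCm38.p5. Filters and the strand setting are not given in the sources used here. Positions are from GENCODE mouse release 21 (GRCm38), which held 53274 of 53379 gene identifiers, and promoters are from RefSeq.

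Libraries were grouped by title. Some label details and list members are not reported here. Rounded expected counts were filtered (filterByExpr) and scaled (TMM), and edgeR 4.0.16 under R 4.3.3 gave two-sided quasi-likelihood p-values, adjusted by Benjamini and Hochberg over all genes tested, with a threshold of 0.05. Line ratios are differences of log2 CPM with a prior count of 2. Of several identifiers with 1 symbol, the one with most counts was used. The alternatives changed the scaling (RLE, upper quartile), the filter (none, or 10 counts or more in each library), the gene set (protein-coding only), the model (organoid line as a block), the samples (without 1 library or 1 line) or the tool. Other tools were DESeq2 1.42.0 and limma 3.58.1 on log2(TPM + 1) and log2(TPM + 0.1), for genes that reached 1 TPM in 3 libraries or without that filter. Other tables used Python 3.11.15, pandas 2.3.3 and scipy 1.17.1.

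Titles give the same number to libraries of 1 organoid line, which pairs the samples. Deviations from the group means correlated across genes at -0.30, 0.01 and 0.29 in lines 6, 23 and 34. Between heterozygous and LOH libraries of different lines the correlations ran from -0.39 to 0.30. No label states a paired model, so the block served as an alternative. The labels do not say whether the cultures of a group were independent of passage or day, so p-values measure the spread between these libraries. Depth ran from 13680458 to 27917277 expected counts, and intervals cover counting error only, since reads carry no molecular identifiers.

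Named genes were the 9 members, Trp53, and from each list at most 2 called genes in each direction, by smallest p, or the 2 genes of smallest p where none was called. Ltv1, Ddx21, Nop16, Nop58, Rrp1b, Mlx, Mlxip, Mlxipl, Pvt1, Flt1 and Cd68 were named after their values were seen. The members and lists were chosen with earlier results of these data known.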

Additional observations from a re-analysis of the deposited data

Results flagged for a closer look

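Over the 3 organoid lines, 17 of 47 named genes and list medians had log2 ratios of LOH to heterozygous of both signs. Each line has 1 library per state, so these differences between lines were not tested. The range over the lines was 4.68 for Mga, 4.53 for Mycn, 1.63 for Mycl, 1.24 for Mnt, 0.95 for Myc, 0.79 for Max and 0.38 for Mxd4. For Mga it separated line 6 from lines 23 and 34, and for Mycn it separated line 34, with 1 LOH count, from lines 6 and 23.

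Among genes of the lists the gap was 2.22 for Krt19, an epithelial keratin (0.99, -0.33 and 1.89 in lines 6, 23 and 34), 1.67 for the germline gene Tdrkh, 1.3 for Tfdp1 and 1.11 for the germline gene Zcwpw1. Among list medians it was 2.10 for the germline genes, of which 3 were tested, 1.03 for genes repressed by Myc, 0.59 for the other Max and Mlx network genes, 0.56 for Myc protein stability, 0.35 for Myc transcription and mRNA control, and 0.23 for the PRC1.6 complex.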

How the results depend on the processing

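The count of all genes called, 757, was 213 with the organoid line as replicate block, 2281 with DESeq2, 1911 and 1753 with limma on log2(TPM + 1) and log2(TPM + 0.1), 241 with limma without a filter, and 0 to 2449 with a library or line left out. It was 0 by edgeR without any 1 heterozygous library (2966, 2637 and 2272 genes at an unadjusted p under 0.05) and without line 23 or 34 (2253 and 2097). Called members, 1 in the main test, numbered 0 with the block and with limma without a filter, and 0 to 1 with a library or line left out. Without line 6, where 1422 of all genes were called, the member called was Mga, not Mxd1. The 17 called genes of the pathway lists became 0 with the block (81 at an unadjusted p under 0.05), 61 with DESeq2, 79, 77 and 9 with the 3 limma settings, and 0 to 105 with a library or line left out. With the block, 20% of all genes tested had an unadjusted p under 0.05 (edgeR). Calls that were higher in LOH made up 68.2% in the main test and 14.7% and 15.2% with limma on TPM, where the median of all genes was -0.35 and -0.42.

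On those TPM scales the medians were -0.98, -1.05 and, without a filter, -0.98 for metabolic targets, -1.11, -1.14 and -1.11 for cell cycle targets (-1.08 to -0.55 with libraries left out), and -0.21 and -0.22 for repressed genes, which reversed (0.02 without a filter, which did not). Mycl reversed to -0.23, -0.40 and -0.23, Max to -0.23, -0.24 and -0.23, and Mxd4 to -0.18, -0.21 and -0.18. Myc stayed below 0, at -0.52, -0.54 and -0.52, and did not pass. With a library or line left out the log2 fold change ran from -0.31 to 0.18 for Myc, -0.51 to 0.61 for Mycl, -0.14 to 0.29 for Max, -0.07 to 0.31 for Mxd4, -0.04 to 2.20 for Mga and -0.25 to 0.57 for Zcwpw1. Differences of transcript shares ran from -4.53 to 1.97 percentage points for Myc-206, -4.58 to 3.94 for Mxd1-201 (1.59 by expected counts), -6.95 to 2.52 for Mga-201, -2.62 to 5.10 for Mga-208 and -0.357 to 3.74 for Mga-215. The cause of these reversals was not tested. Mxd1, Mxd3 and Mnt and the ribosome biogenesis median kept their direction in all 19 alternatives, and Mycn in the 16 that could test it. Depth limits Mycn most, with 1 to 80 counts per library.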
